A study of Mus musculus with 4 samples.

Results

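Genes of major histocompatibility complex (MHC) class I antigen presentation were followed in single nuclei of mouse liver. The 8 genes were taken by symbol from the 32285 genes in the files (0.0248%): the class I heavy chains H2-K1 and H2-D1, the light chain B2m, the peptide transporter subunits Tap1 and Tap2, the immunoproteasome subunits Psmb8 and Psmb9, and the transcriptional coactivator Nlrc5. All 8 symbols matched a gene. The nuclei came from non-tumor liver of male mice aged 12 months, all of which had been given the liver carcinogen diethylnitrosamine (DEN) as a dose of 25 mg/kg at an age of 14 days. Of the 4 libraries, 2 carried the Brca1-WT label and 2 the Brca1-KO label, so DEN exposure, sex and age were shared by both groups and no library came from a mouse without DEN. The series is titled after an oncogenic role of Brca1, a DNA repair gene, in the liver. The strain, the deleted exons, the driver of the deletion and whether a library pooled mice are not stated in the labels.

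Almost every nucleated cell displays class I molecules, each made of a heavy chain, beta-2-microglobulin and a short peptide. The proteasome cuts proteins into peptides, TAP1 and TAP2 carry them into the endoplasmic reticulum, and CD8 T cells and natural killer (NK) cells read the complex at the cell surface. PSMB8 and PSMB9 replace catalytic subunits of the constitutive proteasome, and their genes lie beside Tap1 and Tap2 in the MHC. NLRC5 joins RFX, CREB and NF-Y factors on class I promoters, and interferons and NF-kappa-B act on neighbouring elements. Hepatocytes are known for displaying little class I, and lymphocytes for displaying much.

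The promoters of the class I genes are shown first, because they carry the elements through which these genes are known to be regulated together. RefSeq's promoter table (mouse build GRCm38.p6) held 6 of the 8 genes. Tap2 and Nlrc5 were not in the table. The 250 bases before each listed start were searched on both strands for GGGATTCCC (a kappa-B element), GAANNGAAA and GAAANNGAA (interferon regulatory factor elements), TGACG (the core of a cyclic AMP response element) and CCAAT (the NF-Y element). Capitals mark the matches, and reverse-strand matches read as their complement. No base in the printed stretches belongs to 2 matches. H2-K1 is on the minus strand and the other 3 are on the plus strand.
H2-K1, chr17:34000354-34000462: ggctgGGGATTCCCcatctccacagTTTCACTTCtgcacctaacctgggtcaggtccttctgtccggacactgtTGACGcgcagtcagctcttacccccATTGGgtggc
H2-D1, chr17:35262919-35263050: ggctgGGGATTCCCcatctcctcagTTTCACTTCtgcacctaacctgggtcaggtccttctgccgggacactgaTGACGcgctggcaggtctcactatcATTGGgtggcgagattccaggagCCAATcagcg
B2m, chr2:122147543-122147643: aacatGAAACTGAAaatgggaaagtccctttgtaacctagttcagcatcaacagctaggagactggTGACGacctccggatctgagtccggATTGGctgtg
Tap1, chr17:34187329-34187479: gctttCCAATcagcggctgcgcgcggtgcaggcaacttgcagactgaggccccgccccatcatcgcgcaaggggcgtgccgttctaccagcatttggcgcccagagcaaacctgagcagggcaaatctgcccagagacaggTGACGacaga

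H2-K1 and H2-D1 carried the kappa-B, interferon, TGACG and CCAAT matches in one order, and 98 of the 109 bases printed for H2-K1 (89.9%) were identical in H2-D1. B2m carried an interferon match, TGACG and CCAAT in that order. It had no match to GGGATTCCC, which says only that these exact letters were not in its window. Tap1 carried a CCAAT and a TGACG match. Psmb9 is read from the opposite strand of the same stretch, chr17:34187331-34187479, so Tap1 and Psmb9 share both matches between them. The Psmb8 window held no match, which says only that these letters were not in it. Among 27025 promoters cut in the same way, GGGATTCCC was found in 0.311%, GAANNGAAA in 6.34%, GAAANNGAA in 7.16%, TGACG in 17.9% and CCAAT in 34.5%. A match is a description of the sequence and not a measured binding site.

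The files held 5209 to 7833 barcodes and 36662067 to 45638888 unique molecular identifiers (UMIs, one per captured transcript) per library. After filters, 4795 to 6970 nuclei per library were kept, with a median of 3464.5 to 4748.5 UMIs per nucleus. Pairs of libraries shared 9 to 20 barcodes. Nuclei were clustered without the 8 genes and were named "-like" a cell class from marker genes. In 7 classes each library held at least 30 nuclei: hepatocyte-like (2573 to 4091 nuclei per library), endothelial-like (661 to 1523), stellate-like (385 to 550), macrophage-like (308 to 547), T or NK-like (162 to 246), B cell-like (76 to 167) and monocyte or dendritic-like (51 to 82). Summed UMIs per library ran from 29181315 to 38783041 in the hepatocyte-like class and from 91199 to 192444 in the monocyte or dendritic-like class, so levels are most precise in the former. Levels are UMIs of a gene per 1000000 UMIs (CPM) of its class in a library. Values given in sets of 4 are, in order, for Brca1-WT replicate 1, Brca1-WT replicate 2, the library labelled Brca1-KO replicate 1 and the library labelled Brca1-KO replicate 2, and SDs are over these 4 libraries.

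Brca1 itself was measured at 13.4, 12.4, 18.6 and 5.78 CPM in hepatocyte-like nuclei. The library labelled Brca1-KO replicate 1 was the highest of the 4 and the one labelled Brca1-KO replicate 2 the lowest. Tags at the 3′ end of a transcript may lie outside the deleted part, so this level does not settle the genotype, and groups are named by their labels throughout. The library labelled Brca1-KO replicate 2 also stood apart in its hepatocyte-like nuclei, of which 94.1% lay in 3 clusters that held 0.117% to 2.41% of those of the other libraries. Of its 661 endothelial-like nuclei, 561 lay in the endothelial-like cluster led by Egfl7 and Pde2a, whereas 1239 of the 1523 of Brca1-WT replicate 1 lay in the cluster led by Shisa9 and Stab2. In this library the 12 endothelial markers summed to 12326 CPM of the endothelial-like class against 19832 to 21193 in the others. Its 20 T or NK markers summed to 6048 in their own class against 7979 to 9255. For some results the value without this library is given beside them. A result with no such value may also move without this library.

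H2-K1, which encodes the K heavy chain that presents peptides to CD8 T cells, was highest in T or NK-like nuclei and lowest in hepatocyte-like nuclei. In T or NK-like nuclei it reached 1071, 746, 677 and 569 CPM, a mean of 766 ± 216 (SD, n = 4). In hepatocyte-like nuclei it stood at 173, 158, 116 and 109, a mean of 139 ± 31.4. Every T or NK-like value was above every hepatocyte-like value, and the mean was 5.50 times as high. Between them came B cell-like (449 ± 136), monocyte or dendritic-like (429 ± 169), macrophage-like (327 ± 59.3), stellate-like (262 ± 94) and endothelial-like nuclei (259 ± 83.1). Libraries of neighbouring classes overlapped at each step of this order except the last, from endothelial-like (lowest library 178) to hepatocyte-like (highest library 173). These orders of classes are descriptions and were not tested.

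**Figure D1:**
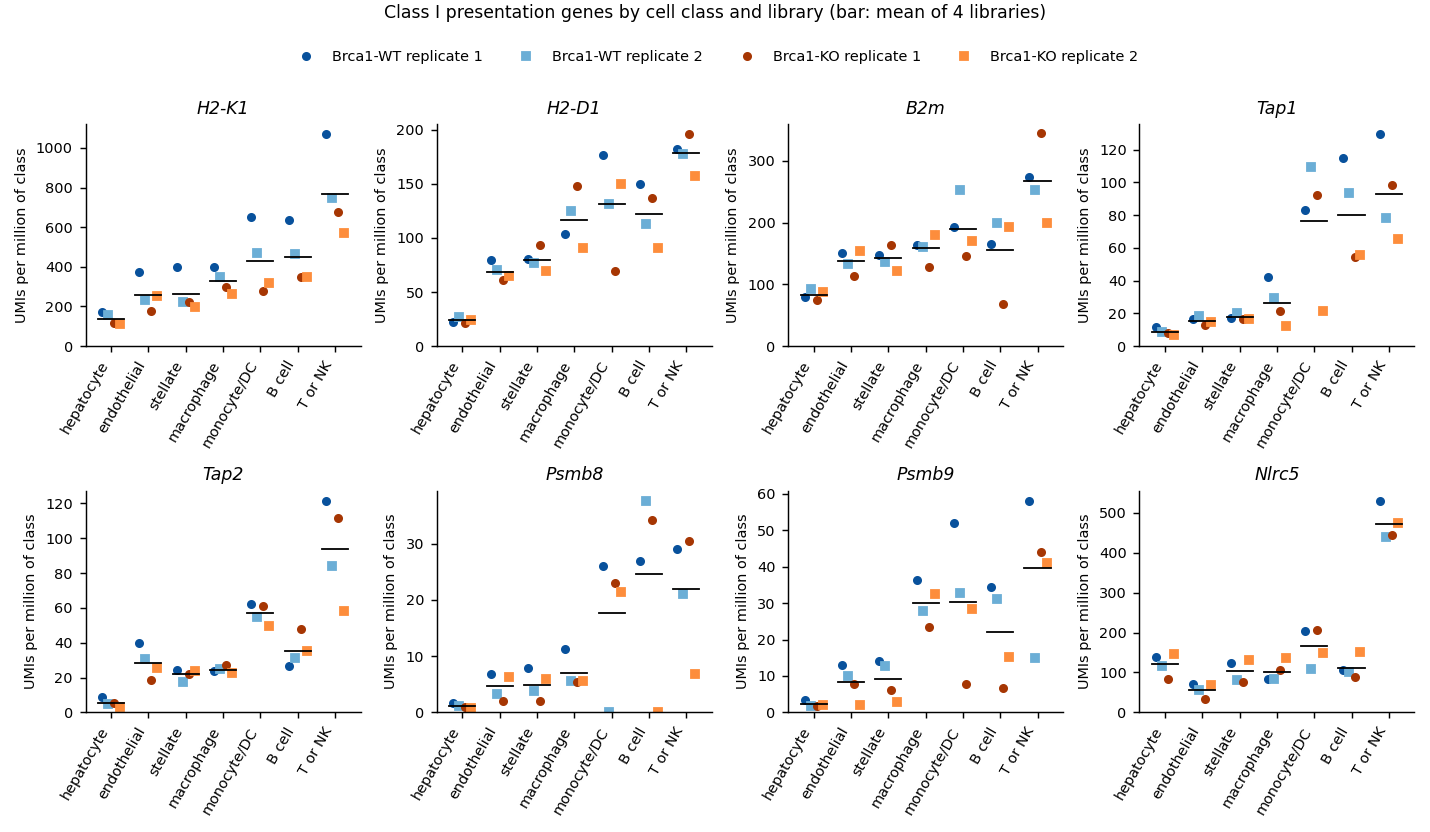
CPM of the class (vertical axes, linear, starting at 0) for each of the 8 genes in 7 cell classes. Each point is 1 library and each bar the mean of 4 libraries. In 7 of the 8 panels the hepatocyte-like class has the lowest mean, and in 7 the T or NK-like class has the highest, while for Nlrc5 the lowest is the endothelial-like class.

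H2-D1 encodes the other classical heavy chain, and its sequence is close to that of H2-K1, so the split of reads between the 2 genes by the authors' counting is uncertain. Its T or NK-like values were 182, 178, 196 and 158 (mean 178 ± 15.9) and its hepatocyte-like values 22.2, 27.3, 21.8 and 24.5 (mean 23.9 ± 2.55). The 2 classes did not overlap, with a 7.45-fold ratio of means. Monocyte or dendritic-like (132 ± 45.7), B cell-like (122 ± 25.9), macrophage-like (117 ± 25.2), stellate-like (79.8 ± 10.1) and endothelial-like nuclei (68.9 ± 8.13) lay between, each overlapping its neighbour. The endothelial-like class did not overlap the hepatocyte-like class.

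B2m, the light chain without which heavy chains do not reach the surface, differed less between classes. It stood at 274, 253, 345 and 199 in T or NK-like nuclei (mean 268 ± 60.6) and at 79.5, 91.9, 74.0 and 86.8 in hepatocyte-like nuclei (mean 83.1 ± 7.88), a ratio of 3.22. The hepatocyte-like values were below those of every other class in every library except B cell-like nuclei of replicate 1 labelled Brca1-KO, where B2m was 68.3 from 10 UMIs. The other 5 classes had means of 138 to 190, and each overlapped the next.

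Tap1 and Tap2 encode the paired subunits of the peptide transporter, and both had their highest means in the lymphoid and dendritic classes, with overlap between some of these and other classes. Tap1 was measured at 129, 78.2, 98.2 and 65.1 in T or NK-like nuclei (mean 92.7 ± 27.9) and at 11.4, 8.64, 8.26 and 6.60 in hepatocyte-like nuclei (mean 8.73 ± 1.99). B cell-like (79.8 ± 29.7) and monocyte or dendritic-like nuclei (76.5 ± 38.4) overlapped the T or NK-like class. The monocyte or dendritic-like class reached down to 21.4, within the macrophage-like range. Macrophage-like (26.3 ± 12.6), stellate-like (17.7 ± 1.80) and endothelial-like nuclei (15.4 ± 2.32) followed, the last without overlap with the hepatocyte-like class.

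Tap2 stood at 121, 84.2, 112 and 58.3 in T or NK-like nuclei (mean 93.9 ± 28.5) and at 8.85, 4.96, 5.48 and 3.04 in hepatocyte-like nuclei (mean 5.58 ± 2.42). The hepatocyte-like mean was thus 5.95% of the T or NK-like mean. Monocyte or dendritic-like nuclei (57.1 ± 5.86) lay above B cell-like nuclei (35.3 ± 9.04) without overlap, the one such step in the middle of the Tap2 order. Endothelial-like (28.6 ± 9.07), macrophage-like (24.6 ± 2.0) and stellate-like nuclei (21.9 ± 3.21) overlapped one another, endothelial-like nuclei also overlapped B cell-like nuclei, and stellate-like nuclei did not overlap the hepatocyte-like class.

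The immunoproteasome genes gave few UMIs. Psmb8, which encodes the subunit also known as LMP7, had 137 UMIs in all hepatocyte-like nuclei together, at 1.60, 1.18, 0.960 and 0.696 CPM (mean 1.11 ± 0.383). In T or NK-like nuclei it had 29 UMIs, at 29.0, 21.1, 30.5 and 6.86 (mean 21.8 ± 10.8). Its highest mean was in B cell-like nuclei (24.6 ± 17.0), where no UMI was found in replicate 2 labelled Brca1-KO, so the order of the 2 lymphoid classes was not distinguishable. Endothelial-like (4.66 ± 2.33), stellate-like (4.92 ± 2.52) and macrophage-like nuclei (6.94 ± 2.85) lay above the hepatocyte-like class without overlap.

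Psmb9, the subunit also known as LMP2, was measured at 58.0, 15, 44.0 and 41.1 in T or NK-like nuclei (mean 39.6 ± 17.9). In hepatocyte-like nuclei it stood at 3.40, 1.89, 1.64 and 1.93 (mean 2.22 ± 0.801). Macrophage-like nuclei (30.03 ± 5.62) had a level close to that of monocyte or dendritic-like nuclei (30.3 ± 18.2), and the 2 overlapped. Endothelial-like values were 13.1, 9.87, 7.87 and 2.12 and stellate-like values 14.2, 12.8, 6.28 and 2.97, and both classes reached down into the hepatocyte-like range in replicate 2 labelled Brca1-KO.

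Nlrc5, the coactivator of these genes, had another order. T or NK-like nuclei stood apart at 530, 439, 443 and 473 (mean 471 ± 41.9), with no overlap with the next class, monocyte or dendritic-like nuclei (167 ± 46.4). Hepatocyte-like nuclei came next in order, at 140, 115, 84.2 and 146 (mean 121 ± 28.1). They overlapped B cell-like (112 ± 27.7), stellate-like (103 ± 28.7) and macrophage-like nuclei (102 ± 24.8). Endothelial-like nuclei were lowest, at 70.2, 55.1, 34.6 and 68.0 (mean 57.0 ± 16.3), below every macrophage-like value (82.7, 83.4, 106 and 135). Hepatocyte-like nuclei were therefore lowest for the 7 genes whose products build and load class I, and in the middle for the coactivator.

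Over the 7 classes, 7 of the 8 genes had their highest mean in T or NK-like nuclei and 7 of 8 their lowest in hepatocyte-like nuclei. Among the 9933 genes with a mean of at least 10 CPM, 16.2% were highest in T or NK-like and 28.8% lowest in hepatocyte-like nuclei. Taken library by library, 8, 5, 7 and 7 of the genes were highest in T or NK-like and 7, 6, 6 and 6 lowest in hepatocyte-like nuclei. For Nlrc5, hepatocyte-like nuclei were at ranks 3, 2, 5 and 4 in the 4 libraries.

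RNA released from broken cells can add UMIs of one class to another, so marker genes were read in the same sums. In hepatocyte-like nuclei the 20 T or NK markers, none at 0, summed to 7.81 to 27.4 CPM, against 6048 to 9255 in their own class. The hepatocyte-like level of the 5 white blood cell markers Ptprc, Coro1a, Arhgap15, Dock2 and Ikzf1 was 0.0798% to 0.305% of the T or NK-like level. For the 8 genes the same share was 5.08% (Psmb8) to 31.0% (B2m), with H2-K1 at 18.2%, H2-D1 at 13.4%, Tap1 at 9.42%, Psmb9 at 5.61% and Nlrc5 at 25.7%. The share of each of the 8 genes was larger than that of these 5 markers. Other classes can also release RNA. In hepatocyte-like nuclei the 11 macrophage markers summed to 59.9 to 108 CPM, against 7738 to 12643 in their own class. The 12 endothelial markers summed to 25.4 to 84.0, against 12326 to 21193 in their own class. The part of released RNA in the hepatocyte-like levels was not tested. In the other direction, the 12 hepatocyte markers, none at 0, summed to 19250 CPM on average in hepatocyte-like nuclei. In T or NK-like nuclei they summed to 5568 to 10076 in Brca1-WT and 5659 to 8633 in those labelled Brca1-KO. In B cell-like nuclei these markers summed to 7561 to 9737 in Brca1-WT and 9138 to 9593 in those labelled Brca1-KO. Their part in the levels of the smaller classes was not tested.

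**Figure D2:**
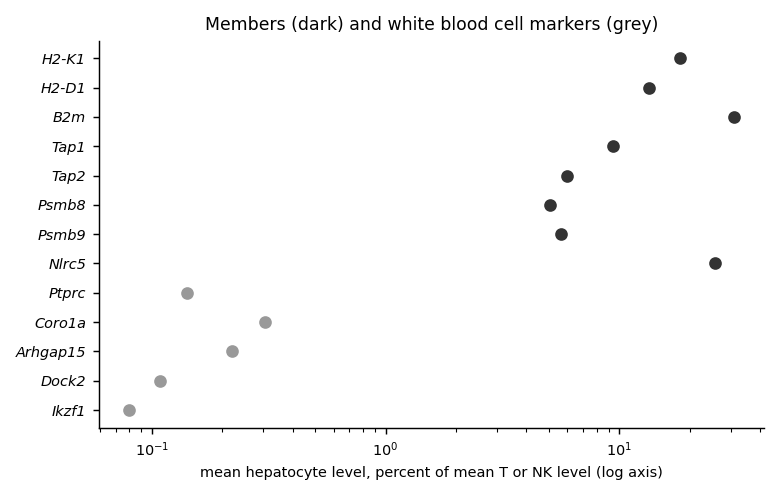
Mean level in hepatocyte-like nuclei as a percentage of the mean level in T or NK-like nuclei (horizontal log axis, means over 4 libraries) for the 8 genes (dark points) and 5 white blood cell markers (grey points). The genes lie between 5.08% and 31.0% and the markers between 0.0798% and 0.305%.

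Hepatocyte-like nuclei held more RNA than the other classes, with a median of 5948 to 9513 UMIs per nucleus by library against 1046 to 1376 in T or NK-like nuclei, and the order of classes depended on whether this was divided out. Counted as UMIs per nucleus, H2-K1 was 1.82, 1.17, 1.32 and 1.03 in hepatocyte-like nuclei (mean 1.33 ± 0.344). In T or NK-like nuclei it was 1.65, 1.22, 1.14 and 1.02 (mean 1.26 ± 0.273). The 2 classes overlapped on this scale, with a ratio of means of 1.06, and hepatocyte-like nuclei ranked first of the 7 classes. They also ranked first for B2m, at 1.79 times the T or NK-like mean, and for Nlrc5, at 1.49 times. Nlrc5 per hepatocyte-like nucleus was 1.47, 0.849, 0.955 and 1.39.

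The transporter and immunoproteasome genes had a lower mean in hepatocyte-like than in T or NK-like nuclei on this scale too. Per nucleus, the hepatocyte-like mean was 0.557 of the T or NK-like mean for Tap1, 0.357 for Tap2, 0.331 for Psmb9 and 0.301 for Psmb8. H2-D1 came to 0.771 of it. Per nucleus, then, the members split into H2-K1, B2m and Nlrc5, which hepatocyte-like nuclei held at the highest mean, and the other 5, which they did not.

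**Figure D3:**
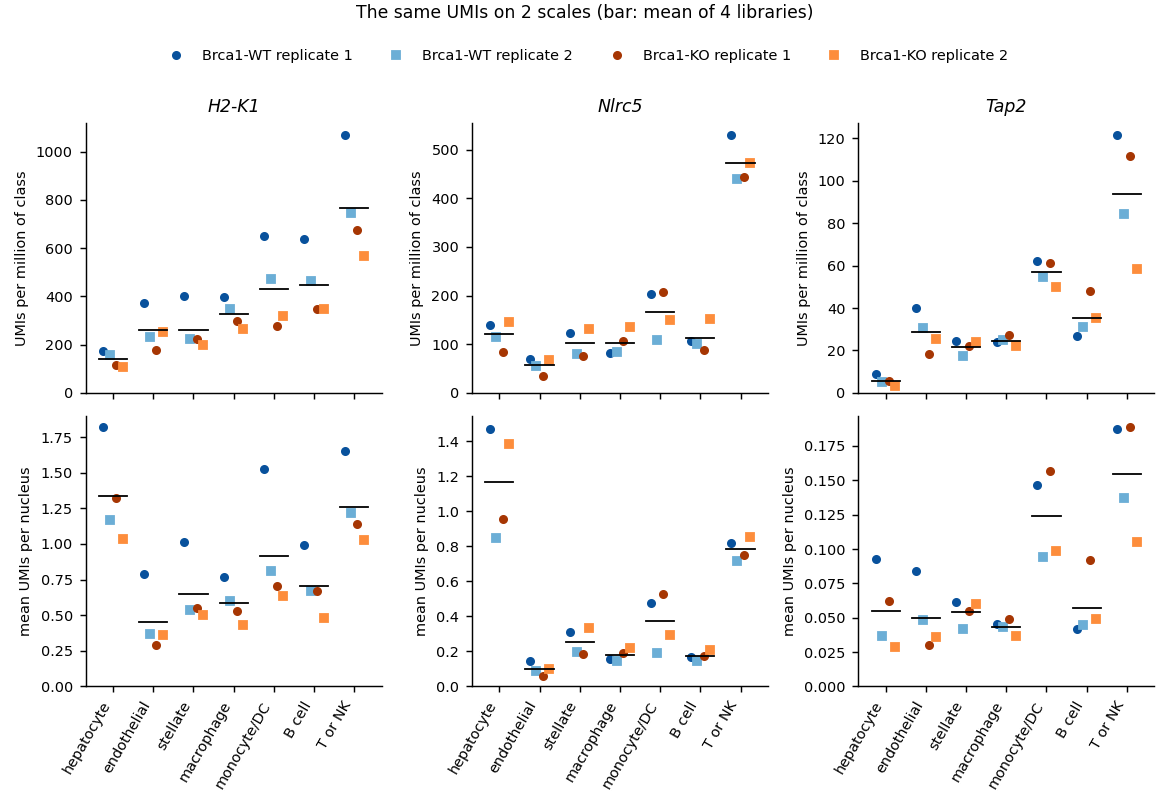
H2-K1, Nlrc5 and Tap2 in 7 classes as CPM of the class (upper row) and as mean UMIs per nucleus (lower row), on linear axes from 0, with 1 point per library and a bar for the mean of 4. For H2-K1 and Nlrc5 the hepatocyte-like class has the highest mean in the lower row (1.33 and 1.17 UMIs per nucleus), whereas for Tap2 the T or NK-like class leads in both rows.

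Hepatocytes differ along the lobule, from periportal to pericentral, so the 9 hepatocyte-like clusters were compared as a description. In Brca1-WT replicate 1, H2-K1 was 172 CPM in the cluster led by the periportal genes Sds and Hal (cluster 4) and 160 in the cluster with pericentral Glul among its leading genes (cluster 2). In Brca1-WT replicate 2 the same clusters gave 167 and 140, and in replicate 1 labelled Brca1-KO they gave 127 and 84.7. The periportal cluster was the higher in all 3 libraries. The cluster led by mitochondrially encoded genes (cluster 5) had more H2-K1, at 288, 197, 168 and 173.

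A cluster led by 2310034O05Rik and Cacna1b, with Gpc3, a marker of early liver tumors, and Cyp2b9 among its leading genes (cluster 16), held 150 nuclei of Brca1-WT replicate 1, 22 of Brca1-WT replicate 2 and none of the libraries labelled Brca1-KO. In Brca1-WT replicate 1 its H2-K1 level was 272, its Tap2 level 16.1 and its Nlrc5 level 189. With this cluster left out, H2-K1 in all other hepatocyte-like nuclei was 169, 158, 116 and 109, close to the values with it.

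Cluster by cluster, the library labelled Brca1-KO replicate 1 had less H2-K1 than both Brca1-WT libraries in each of clusters 1 to 5, from 84.7 against 140 and 160 in cluster 2 to 168 against 197 and 288 in cluster 5. The library labelled Brca1-KO replicate 2 had 126 in cluster 6, where 1927 of its nuclei lay, against 215 and 161 in 33 and 82 Brca1-WT nuclei. In clusters it shared with the others it had 159 in cluster 3, 131 in cluster 4 and 173 in cluster 5, from 36 to 102 nuclei. The value in cluster 3 was close to that of Brca1-WT replicate 2 (161). Its own clusters 18 and 19, the latter with Glul and Lgr5 among its leading genes, had 95.7 and 86.0. Nlrc5 separated the libraries otherwise, since replicate 1 labelled Brca1-KO had 70.8 to 93.6 in clusters 1 to 5, below both Brca1-WT libraries, and replicate 2 labelled Brca1-KO had 116 to 177.

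**Figure D4:**
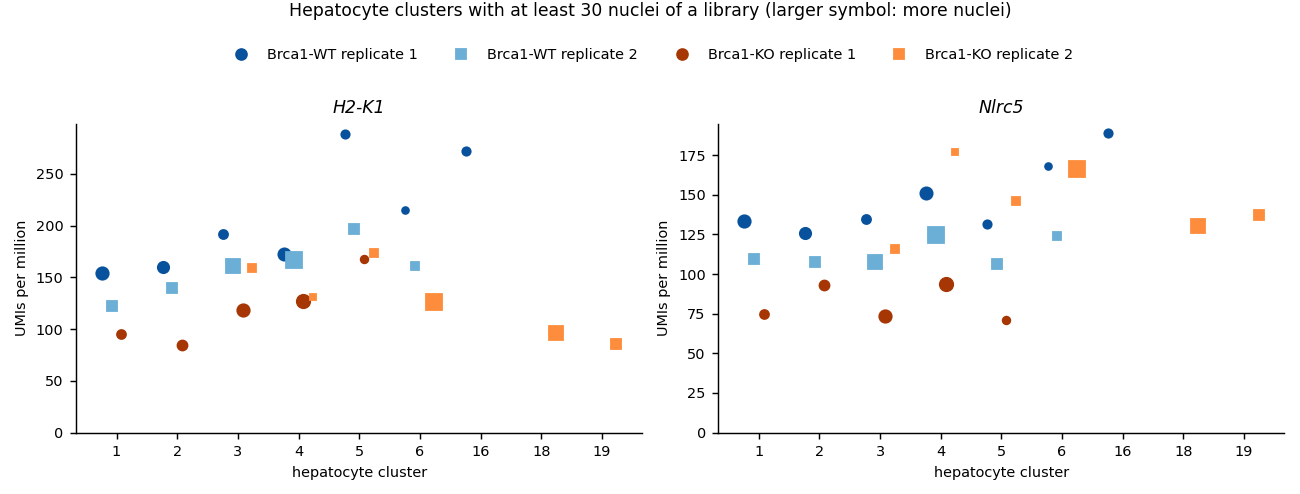
H2-K1 and Nlrc5 in CPM (vertical axes from 0) in hepatocyte-like clusters of each library with at least 30 nuclei, where a larger symbol stands for more nuclei. The library labelled Brca1-KO replicate 1 lies below both Brca1-WT libraries in clusters 1 to 5 for both genes, and 3850 of the nuclei of replicate 2 labelled Brca1-KO lie in clusters 6, 18 and 19.

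The comparison of genotypes asked whether these genes differed between livers labelled Brca1-KO and Brca1-WT. H2-K1 was the member with the most even pattern: the pair labelled Brca1-KO were both under the Brca1-WT pair in 6 of 7 classes, and in 5 of 7 after TMM scaling, where stellate-like nuclei overlapped. The ratio of group means was 0.532 to 0.749 over the classes. The classes came from the same 4 libraries, so their agreement is not repeated evidence. In a single class 15.4% to 23.1% of all genes were lower in both libraries labelled Brca1-KO. No member passed in any class, however. With edgeR's quasi-likelihood test and Benjamini-Hochberg adjustment over all genes, 0 of 47 tests of a member in a class had an adjusted p below 0.05, and 6 had an unadjusted p below 0.05. DESeq2 also called 0 of them. With 2 libraries against 2, an exact permutation test of 1 value cannot give a 2-sided p below 0.33, and the p-values measure only the spread between these samples.

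In hepatocyte-like nuclei, the H2-K1 values were 173 and 158 for Brca1-WT, against 116 and 109 under the Brca1-KO label, and did not overlap. The log2 fold change was -0.51 (SE 0.17, unadjusted p = 0.031, adjusted p = 0.988 by edgeR's quasi-likelihood test over 15114 genes). It stayed between -0.55 and -0.44 over 12 alternatives, including leaving out each library. Measures of nucleus quality moved with the labels: mitochondrially encoded UMIs had a median of 0.193% and 0.148% per nucleus for Brca1-WT, against 0.109% and 0.102% under the Brca1-KO label, and called doublets came to 11.3%, 7.33%, 5.01% and 2.99%. Markers of some other classes in the same hepatocyte-like sums were also lower under that label: the 12 endothelial markers summed to 84.0 and 62.0 against 44.2 and 25.4 CPM, the 11 macrophage markers to 108 and 108 against 59.9 and 90.1, and the 10 stellate markers to 40.0 and 27.9 against 14.4 and 24.3, with 0 markers of these lists at 0. Markers of the other classes overlapped between the groups for T or NK (17.2 and 9.93 against 7.81 and 27.4) and B cell (6.94 and 5.44 against 3.02 and 7.01). Monocyte or dendritic markers overlapped too (25.3 and 31.3 against 30.4 and 21.6). H2-K1 had a higher level in each of these classes than in hepatocyte-like nuclei. The part of these measures in the H2-K1 difference was not tested. On the scale of UMIs per nucleus the groups overlapped, since replicate 1 labelled Brca1-KO had 1.32 and Brca1-WT replicate 2 had 1.17. Tap1 (-0.38, SE 0.25, and -0.17 without Brca1-WT replicate 1) and Psmb8 (-0.70, SE 0.39) were also lower in both libraries labelled Brca1-KO. H2-D1 and B2m were both at -0.04 on the log2 scale (SE 0.21 and 0.20), with overlapping libraries, and Nlrc5 overlapped too at -0.08 (SE 0.33). Without replicate 2 labelled Brca1-KO, H2-D1, B2m and Nlrc5 were at -0.17, -0.19 and -0.58. Thus 3 of 8 members were lower in both libraries labelled Brca1-KO, beside 19.7% of all genes tested in this class, and 0 were higher in both, beside 11.5%. The share of genes with an adjusted p below 0.05 was 0.00%, and 3.32% (502 genes) had an unadjusted p below 0.05. DESeq2 called 23 genes in this class, and edgeR called 29 without replicate 1 labelled Brca1-KO, no member among either.

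**Figure D5:**
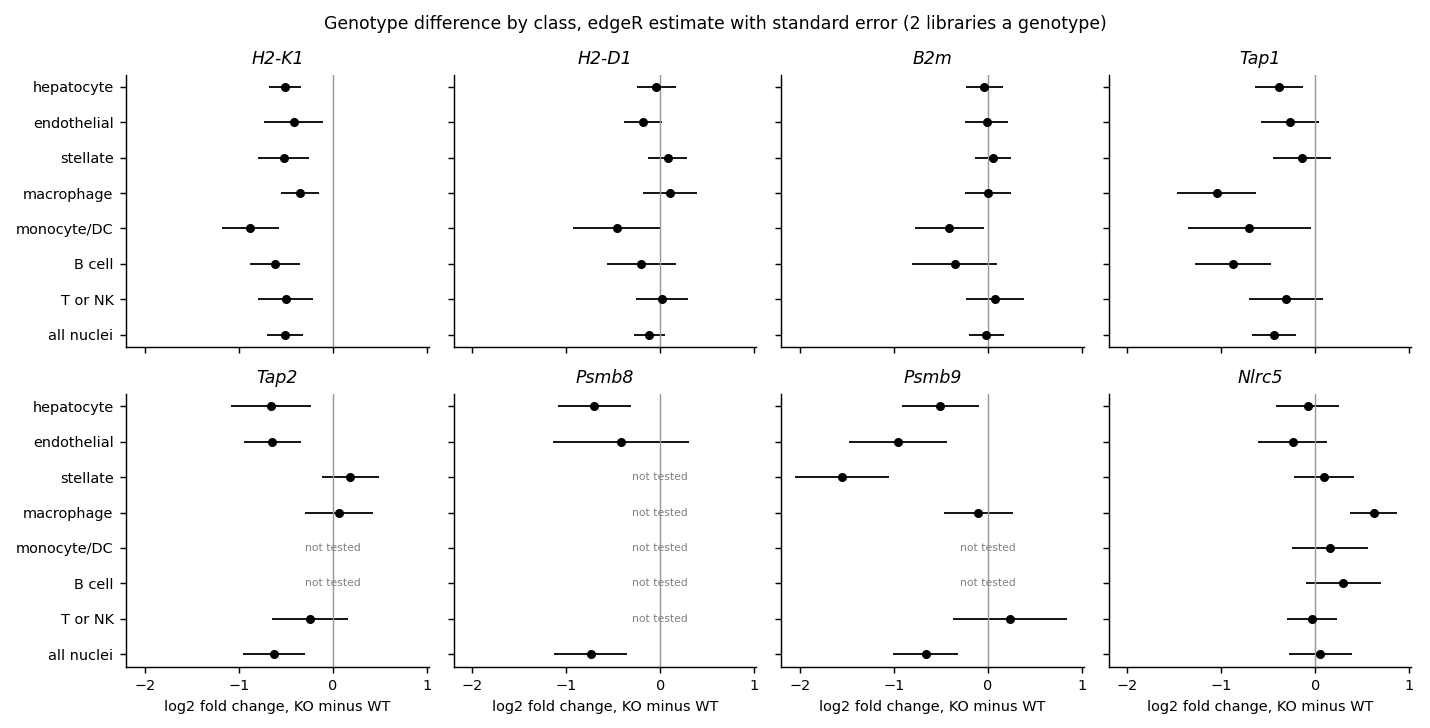
Log2 fold change, libraries labelled Brca1-KO minus Brca1-WT (horizontal axes), of each member in 7 classes and in the sum of all nuclei, with points for the edgeR estimate and lines for its standard error, from 2 libraries a genotype. Every H2-K1 estimate is negative, from -0.88 to -0.35, and genes with too few UMIs are marked as not tested.

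The H2-K1 estimate was largest in size in monocyte or dendritic-like nuclei, followed by B cell-like nuclei. The stellate-like (-0.52) and T or NK-like (-0.50) estimates were close to the hepatocyte-like one (-0.51). Smaller in size were the endothelial-like and macrophage-like estimates of H2-K1. In monocyte or dendritic-like nuclei it was 649.5 and 471 against 276 and 321, a log2 fold change of -0.88 (SE 0.30, unadjusted p = 0.012, adjusted p = 1 by edgeR's quasi-likelihood test). In B cell-like nuclei it was 636.5 and 462 against 349 and 349, a log2 fold change of -0.61 (SE 0.27, unadjusted p = 0.043, adjusted p = 0.612 by the same edgeR test). The groups did not overlap in either class. The B cell-like estimate was -0.35 without Brca1-WT replicate 1 and -0.23 with doublets kept. In this class the 10 B cell markers were also lower in both libraries labelled Brca1-KO (11921, 11600, 9930 and 8559 CPM), as were the 5 white blood cell markers (9099, 8568, 7169 and 5546), and their part was not tested. In T or NK-like nuclei the estimate was -0.50 (SE 0.30), which was -0.26 without Brca1-WT replicate 1 and -0.13 with doublets kept, and in macrophage-like nuclei -0.35 (SE 0.20), again without overlap.

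Stellate-like and endothelial-like estimates came close to 0 without 1 library. Stellate-like H2-K1 was 401 and 223.5 against 223.1 and 198, a log2 fold change of -0.52 (SE 0.27), and without Brca1-WT replicate 1 it was -0.06. Endothelial-like H2-K1 was 374 and 231 against 178 and 253, overlapping, at -0.41 (SE 0.31). It was -0.03 without Brca1-WT replicate 1, -0.16 without replicate 1 labelled Brca1-KO and -0.72 without replicate 2 of that label. Brca1-WT replicate 1 had the highest H2-K1 of the 4 libraries in 7 of 7 classes, and Psmb9 shared this in 7 of 7.

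Other members differed by class. Tap1 had its 2 lowest libraries in the group labelled Brca1-KO in 5 of 7 classes. In macrophage-like nuclei it was 42.0 and 29.2 against 21.7 and 12.3, a log2 fold change of -1.05 (SE 0.42, unadjusted p = 0.039, adjusted p = 0.944 by edgeR's quasi-likelihood test). These values came from 11 to 30 UMIs per library, and the estimate was -0.67 without replicate 2 labelled Brca1-KO and -0.64 with doublets kept. The 11 macrophage markers in this class were lower in the same libraries, at 11571, 12643, 10047 and 7738 CPM, and their part was not tested. Psmb9 in stellate-like nuclei was 14.2 and 12.8 against 6.28 and 2.97, a log2 fold change of -1.55 (SE 0.50, unadjusted p = 0.017, adjusted p = 0.991 by the same test), from 4 to 18 UMIs per library. Nlrc5 in macrophage-like nuclei went the other way, at 82.7 and 83.4 against 106 and 135, a log2 fold change of 0.62 (SE 0.25, unadjusted p = 0.041, adjusted p = 0.944 by edgeR's quasi-likelihood test). It was 0.40 without replicate 2 labelled Brca1-KO and 0.29 with doublets kept. It was the one tested member and class with both libraries labelled Brca1-KO above both Brca1-WT libraries. H2-D1 was lower in both in 1 of 7 classes and B2m in 1 of 7, with ratios of group means of 0.709 to 1.04 and 0.712 to 1.03.

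Counted by class, the members lower in both libraries labelled Brca1-KO were 4 of 8 in endothelial-like nuclei (21.8% of all genes tested there), 2 of 7 in macrophage-like (21.4%) and 3 of 7 in stellate-like nuclei (20.0%). They were 1 of 7 in T or NK-like (15.4%), 2 of 5 in B cell-like (23.1%) and 2 of 5 in monocyte or dendritic-like nuclei (18.1%). Higher in both were 0 of 8 in endothelial-like (10.5% of all genes) and 1 of 7 in macrophage-like nuclei (12.5%). In T or NK-like and macrophage-like nuclei the members' share was near the background. In the other classes given here it was above it. These shares rest on 2 to 4 members a class, too few to read as a result about the members, and were not tested. The background itself leaned to lower values, and after TMM scaling the share of genes lower in both was 13.5% to 20.8% and of genes higher in both 14.7% to 18.5% over the classes and the sum of all nuclei.

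Unadjusted p-values below 0.05 were found for 2.36% of genes in endothelial-like, 4.43% in macrophage-like, 3.95% in stellate-like, 2.40% in T or NK-like, 7.96% in B cell-like and 4.04% in monocyte or dendritic-like nuclei. The adjusted test called 0.00% of genes in all of these classes but the last, where it called 0.0290%, which is 1 of 3444. That gene, looked up after its value was seen, was Arsb, which encodes the lysosomal enzyme arylsulfatase B. It was 582, 658, 138 and 128 CPM, a log2 fold change of -2.16 (SE 0.31, adjusted p = 0.040 by edgeR's quasi-likelihood test). No gene of this class was called in nuclei with at least 1000 genes detected, and DESeq2 called 0 genes in these 6 classes. Without the library labelled Brca1-KO replicate 1, which leaves 1 library in that group, edgeR called 55 to 425 genes in these 6 classes, again with no member among them.

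In the sum of all kept nuclei, 7 of 8 members were lower in both libraries labelled Brca1-KO (6 of 8 after TMM scaling, where B2m overlapped), as were 29.3% of 17145 genes. In such a sum, fewer cells of a type and less RNA per cell cannot be told apart. H2-K1 was 221, 178, 133 and 123, a log2 fold change of -0.51 (SE 0.19, unadjusted p = 0.041, adjusted p = 0.800 by edgeR's quasi-likelihood test). Tap1, Tap2, Psmb8 and Psmb9 had log2 fold changes of -0.74 to -0.44, which were -0.31 to -0.23 without Brca1-WT replicate 1. Nlrc5 overlapped at 0.05, and was -0.47 without replicate 2 labelled Brca1-KO. Without TMM scaling the median gene of this sum stood at -0.12 on the log2 scale. The adjusted test called 0.00% of genes (270 genes without replicate 1 labelled Brca1-KO, no member among them), 4.58% had an unadjusted p below 0.05, and DESeq2 called 22 genes.

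Whether a member's genotype difference in one class differed from that in hepatocyte-like nuclei was tested as an interaction, with the library as a block. The 6 comparisons share the hepatocyte-like sums. With edgeR's quasi-likelihood test, 0 of 48 member tests had an adjusted p below 0.05, 1 had an unadjusted p below 0.05, and DESeq2 called 0. That test was of Nlrc5 in macrophage-like nuclei, where the log2 fold change was higher than in hepatocyte-like nuclei by 0.73 (SE 0.33, unadjusted p = 0.026, adjusted p = 1 by edgeR). Over all genes, this test called 0.0680% for B cell-like, 0.0327% for T or NK-like, 0.00% for endothelial-like, 0.0502% for macrophage-like, 0.00677% for monocyte or dendritic-like and 0.00609% for stellate-like nuclei. A difference in H2-K1 between classes was thus not detected with these libraries, and this does not show that the classes were alike.

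Interferons raise the transcription of all 8 genes, so 46 interferon-induced genes, of which 44 were in the files, were read beside them. None was called in any class by edgeR, and DESeq2 called 1, Rsad2 in hepatocyte-like nuclei. In endothelial-like nuclei all 29 tested had a negative log2 fold change, with a median of -0.52 against 0.00 over all genes, and 20 were lower in both libraries labelled Brca1-KO, beside 21.8% of all genes in this class (19 and 16.7% after TMM scaling). Of these 29, 5 had an unadjusted p below 0.05. Over 11 alternatives the median stayed between -0.64 and -0.39. The immunity-related GTPase Iigp1 was 123, 88.8, 63.5 and 61.6 CPM of this class, a log2 fold change of -0.69 (SE 0.23, and -0.44 without Brca1-WT replicate 1). Ifi44 was 13.4, 11.9, 6.29 and 1.06 (-1.47, SE 0.56), and the oligoadenylate synthetase-like gene Oasl2 was 43.1, 39.9, 28.8 and 15.9 (-0.77, SE 0.30). In these 3 genes the groups did not overlap. Without replicate 2 labelled Brca1-KO, Ifi44 was -0.97 and Oasl2 -0.48, and without replicate 1 of that label they were -3.42 and -1.28. In these sums the 12 endothelial markers were 19832, 20666, 21193 and 12326 CPM. Oasl2 was called in stellate-like nuclei (-1.10) only without replicate 1 labelled Brca1-KO.

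In hepatocyte-like nuclei, 22 of 31 tested interferon-induced genes had a negative log2 fold change, 14 were lower in both libraries labelled Brca1-KO (11 after TMM scaling) and 2 higher in both, beside 19.7% and 11.5% of all genes (17.0% and 14.97% after TMM scaling). The median was -0.41 against -0.01 over all genes. It was -0.18 without Brca1-WT replicate 1, -0.27 without replicate 1 labelled Brca1-KO, -0.62 without Brca1-WT replicate 2 and -0.90 without replicate 2 labelled Brca1-KO. The 2 higher genes lie next to each other in the mouse genome and encode antiviral enzymes. Rsad2 was 0.783, 0.473, 2.91 and 2.84 CPM, a log2 fold change of 2.24 (SE 0.39, adjusted p = 0.988 by edgeR's quasi-likelihood test). With DESeq2 it was 2.29 (SE 0.55, adjusted p = 0.030). Cmpk2 was 0.340, 0.270, 1.30 and 0.980 (1.93, SE 0.42). Ifi204, an intracellular DNA sensor, went the other way at 1.33, 1.28, 0.514 and 0.335 (-1.58, SE 0.40). Its mean level was 152 CPM in endothelial-like and 181 in macrophage-like nuclei, whose markers in the hepatocyte-like sums were lower in the same libraries, as given above for H2-K1, and their part was not tested.

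Macrophage-like nuclei had 20 negative of 25 tested interferon-induced genes and a median of -0.38, which was -0.12 with doublets kept, with 17 lower in both libraries labelled Brca1-KO (11 after TMM scaling) and 1 higher in both, beside 21.4% and 12.5% of all genes. The macrophage markers of this class were lower in both of these libraries too, as given above for Tap1, and their part was not tested. Stellate-like nuclei had 18 negative of 25 and a median of -0.17, which was 0.03 without Brca1-WT replicate 1. In B cell-like nuclei 4 of 6 tested genes were negative (median -0.26), in T or NK-like nuclei 4 of 12 (median 0.05), and in monocyte or dendritic-like nuclei 0 of 6 (median 0.33). Few genes of this list had enough UMIs in these 3 smaller classes.

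A further 17 genes of peptide loading and class I heavy chains were tested where UMIs allowed, and none was called in any class by edgeR with all 4 libraries and its filter, or by DESeq2. In hepatocyte-like nuclei 9 of 14 had a negative log2 fold change (median -0.33, or -0.09 without Brca1-WT replicate 1). Of these 14, 8 were lower in both libraries labelled Brca1-KO and 4 higher in both, beside 19.7% and 11.5% of all genes. The nonclassical heavy chain H2-Q6 was 16.3, 18.4, 9.53 and 8.35 CPM (log2 fold change -0.91, SE 0.20, unadjusted p = 0.006 by edgeR). H2-Q7 was 23, 20.8, 12.2 and 14.9 (-0.63, SE 0.21) and H2-Q4 19.4, 14.0, 6.96 and 10.0 (-0.91, SE 0.31). These H2-Q genes are similar in sequence, so their separate counts are uncertain. H2-Q10, which encodes a secreted heavy chain made by the liver, was highest in hepatocyte-like nuclei.

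In endothelial-like nuclei 9 of 14 of these genes were negative (median -0.31), and 7 were lower in both libraries labelled Brca1-KO, beside 21.8% of all genes. H2-Q4 was 99.9, 71.1, 43.5 and 38.2 (-0.99, SE 0.25) and H2-T23, which encodes the Qa-1 molecule read by NK cell receptors, was 32.8, 28.0, 18.4 and 12.7 (-0.86, SE 0.28). Calr, the chaperone calreticulin, was higher in both libraries labelled Brca1-KO, at 21.8, 20.1, 34.1 and 40.4 (0.88, SE 0.25). The groups did not overlap for these 3 genes. Macrophage-like nuclei had a positive median of 0.23 over 13 genes.

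Several of these genes were called only in some settings, and they are named because of those calls. Pdia3, which encodes the chaperone ERp57 of the peptide-loading complex, was 51.2, 57.9, 74.4 and 129 CPM in stellate-like nuclei. It was 65.5, 61.3, 66.1 and 179 in endothelial-like nuclei and 58.0, 60.2, 102 and 226 in T or NK-like nuclei. In the sum of all nuclei Pdia3 was 109, 65.2, 128 and 390, and its class mean was highest in hepatocyte-like nuclei (183). The 12 hepatocyte markers summed to 4553, 5535, 4361 and 8216 CPM in endothelial-like nuclei. In T or NK-like nuclei they summed to 5568, 10076, 5659 and 8633, and their part was not tested. Replicate 2 labelled Brca1-KO had the highest Pdia3 in the stellate-like, endothelial-like and T or NK-like classes and in the sum of all nuclei. Without replicate 1 labelled Brca1-KO, which leaves that high library alone in its group, edgeR called Pdia3 in 5 classes and in the sum of all nuclei, with log2 fold changes of 1.31 to 2.35. Pdia3 was also called in stellate-like nuclei without a filter on low counts (0.96, SE 0.23, adjusted p = 0.028 by edgeR's quasi-likelihood test). With the same library left out, stellate-like nuclei gave calls for the chaperone genes Canx (1.04) and Calr (1.12) and for H2-Q6 (-1.13), and T or NK-like nuclei gave one for Canx (1.63).

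The proteasome genes outside the members were divided. All 19 constitutive subunits were tested in hepatocyte-like nuclei, where 12 were negative and the median was -0.06. Of them, 1 was lower and 1 higher in both libraries labelled Brca1-KO, beside 19.7% and 11.5% of all genes. Their median was 0.07 in endothelial-like nuclei. By class, 11 of the 19 were highest in hepatocyte-like nuclei and 0 were lowest there, the reverse of Psmb8 and Psmb9, which were lowest there. Among the 9933 genes with a mean of at least 10 CPM, 2171 were highest and 2865 lowest there. The other immunoproteasome and activator genes, Psmb10, Psme1, Psme2 and Pomp, were all highest in monocyte or dendritic-like nuclei, as were 1570 of the 9933 genes. In hepatocyte-like nuclei 3 of these 4 had a negative log2 fold change (median -0.19), among them Psme1 at 9.74, 9.69, 6.51 and 8.17 (-0.35, SE 0.25, and -0.15 without replicate 1 labelled Brca1-KO or -0.56 without replicate 2).

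Genes of the class I enhanceosome and of interferon gamma signalling had mostly positive log2 fold changes in hepatocyte-like nuclei, where 16 of 22 were positive, with a median of 0.15. Of these 22, 8 were higher in both libraries labelled Brca1-KO and 3 lower, beside 11.5% and 19.7% of all genes. Nfyc, a subunit of the CCAAT-binding factor, was 147, 127, 168 and 169 (0.35, SE 0.18). Irf1, an interferon-induced activator of class I genes, was 22.9, 27.7, 28.0 and 38.5 (0.45, SE 0.25, and 0.17 without replicate 2 labelled Brca1-KO). Nfya was 11.9, 13.0, 16.6 and 13.5 (0.32, SE 0.20). In endothelial-like nuclei Irf8 was 54.6, 47.3, 70.3 and 71.2 (0.55, SE 0.21, unadjusted p = 0.040 by edgeR's quasi-likelihood test), and the median over 23 genes was 0.04. None was called in any class by edgeR or DESeq2.

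MHC class II, through which B cells and dendritic cells present to CD4 T cells, was read as a second presentation pathway. Of its 11 genes, 8 were highest in monocyte or dendritic-like nuclei and 9 lowest in hepatocyte-like nuclei. Among the 9933 genes with a mean of at least 10 CPM these were 1570 and 2865. In B cell-like nuclei 7 of 9 tested class II genes were negative and 7 were lower in both libraries labelled Brca1-KO, beside 23.1% of all genes. Their median was -0.64, between -0.94 and -0.11 over 11 alternatives. The 11 genes summed to 2120, 2025, 1135 and 1530 CPM of this class. The 10 B cell markers in the same sums were 11600 to 11921 for Brca1-WT and 8559 to 9930 in those labelled Brca1-KO, and their part in this was not tested. The value of -0.11 was that with doublets kept. Of 14 receptors and coreceptors that read class I, such as Cd8a and the Klra family, 12 were highest in T or NK-like nuclei, beside 16.2% of the 9933 genes. In that class 7 of 8 tested were positive, with a median of 0.45. Among 7 class I-like molecules, 6 were tested in hepatocyte-like nuclei, all with a negative log2 fold change and a median of -0.17. None of the genes in these lists was called by edgeR with all 4 libraries or by DESeq2. Without replicate 1 labelled Brca1-KO, edgeR called the NK receptor genes Klra1 and Klra4 in T or NK-like nuclei. Klra1 was 76.5, 57.2, 139 and 0 CPM there and Klra4 87.0, 75.2, 159 and 3.43, so for both genes the left-out library was the highest and the library left in its group the lowest.

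Likeness over the 28 sums of 7 classes and 4 libraries was measured as Pearson's r of log2(CPM + 1) among 9932 genes, as a description, since sums of a library share its depth and sums of a class its makeup. The genes most like H2-K1 were Zc3hav1, an antiviral zinc finger gene (r = 0.89), Suco (0.89) and H2-D1 (0.87). H2-D1 was most like Twf2 (0.95), Akna (0.94) and Gm4070 (0.93). For B2m the nearest were Nup107 (0.86), Lockd (0.86) and Rinl (0.85), and for Tap1 they were Znrf2 (0.93), Zfp36l2 (0.93) and Grap2 (0.92).

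Tap2 was most like Cdyl2 (0.93), Cnn2 (0.91) and mt-Cytb (0.91), and Psmb8 most like Ppp3cb (0.85), Zfp120 (0.81) and Cwc15 (0.79). Psmb9 was most like Gm4070 (0.90), Trpv2 (0.88) and Capza1 (0.87). Nlrc5 was most like Prkca (0.86), Abcb1a (0.86) and the NK cell receptor gene Ncr1 (0.85). Between the members themselves, H2-K1 had r of 0.60 to 0.87 with the other 7 (median 0.83). Nlrc5 had 0.39 to 0.60 (median 0.53), the lowest median of the 8.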

How the data were processed

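Deposited were raw, whole-number UMI counts for each gene in each barcode. Per the file headers, the authors' software was Cell Ranger 6.0.0. The submitters' processing notes name the human build GRCh38, yet all 32285 gene identifiers are mouse. The mouse build, and whether introns or strand were used in counting, are not given in the sources used, and the labels give the molecule as genomic DNA and the kit as 10x Genomics 3′ v1.

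Nuclei needed at least 500 genes and no more than 5% of UMIs from mitochondrial genes, and doublets called by Scrublet (expected rate 0.06) were removed per library. All 4 libraries entered 1 clustering, uncorrected for library, in scanpy 1.11.5 (Python 3.11.15, python-igraph 0.11.9, scipy 1.17.1) with 2000 variable genes that left out the 8 genes and the list genes, 30 components, 15 neighbours and Leiden resolution 1, giving 21 clusters. A cluster was named from markers where at least 3 were detected in at least 10% of its nuclei, its score was at least 1.5 times the next and its leading genes did not go against the name. The score rule, and treating T and NK markers as 1 class, were set after the data were seen. The rule left 3 clusters unnamed, holding 0.383% to 1.95% of nuclei per library.

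UMIs were summed per library and class, since nuclei are not replicates. Sums were compared as Brca1-KO minus Brca1-WT with edgeR 4.0.16 in R 4.3.3 (quasi-likelihood test, TMM scaling, filterByExpr, no block), with Benjamini-Hochberg adjustment over all genes and a threshold of 0.05. DESeq2 1.42.0 was an alternative, beside a filter, a block, left-out libraries and other ways of clustering. Scripts were tested on simulated data. The labels call the libraries biological replicates and say no more of the mice.

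Named were all 8 genes, from each of 8 lists up to 3 genes of smallest unadjusted p in hepatocyte-like and endothelial-like nuclei and any that passed, and for each of the 8 genes the 3 most like it. The 8 genes and the lists were chosen with earlier results of these data known. A gene named for a call under 1 alternative was chosen after its values were seen.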

Additional observations from a re-analysis of the deposited data

Results flagged for a closer look

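Outside the 8 presentation genes, some genotype differences in a class differed from that in hepatocyte-like nuclei by the test of the difference itself (edgeR's quasi-likelihood test of the interaction, adjusted over all genes). Those of the gene lists, and all those of classes with 5 or fewer calls, are given as values. B cell-like nuclei had 10 calls, none in the lists, and macrophage-like nuclei had 8, of which Rsad2 is in a list. Rsad2, an interferon-induced antiviral gene, was 40.6, 19.5, 18.1 and 12.3 CPM in macrophage-like nuclei and 0.783, 0.473, 2.91 and 2.84 in hepatocyte-like nuclei, a difference of log2 fold changes of -3.16 (SE 0.72, adjusted p = 0.033 by edgeR). Both Brca1-KO-labelled libraries were below the Brca1-WT libraries in the one class and above them in the other. The macrophage-like values came from 29, 14, 10 and 11 UMIs. Its adjusted p was above 0.05 with DESeq2 (0.913), and by edgeR with doublets kept (0.073) and in nuclei with at least 1000 genes (0.061). The call was also lost without Brca1-WT replicate 1 (difference -2.91), Brca1-WT replicate 2 (-3.24) or replicate 2 labelled Brca1-KO (-2.87). Without replicate 1 labelled Brca1-KO the difference was -3.38 and the call was kept.

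Arsb, a lysosomal sulfatase gene, was 582, 658, 138 and 128 in monocyte or dendritic-like nuclei and 50.1, 37.6, 48.1 and 61.1 in hepatocyte-like nuclei, a difference of -2.48 (SE 0.43, adjusted p = 0.000148 by edgeR). In T or NK-like nuclei against hepatocyte-like nuclei the differences were 7.12 for Kif5c, -5.13 for Pdzrn3, 5.91 for Thsd4, 3.16 for Ipcef1 and 2.41 for Nxn, and in stellate-like nuclei 7.39 for Kif5c. Hepatocyte-like Kif5c was 8.68, 1.62, 0.0343 and 0.0258 CPM, the last 2 from 1 UMI each, so the size of its difference is imprecise. Kif5c and Thsd4 were among the 10 leading genes of the hepatocyte-like cluster found in the Brca1-WT libraries alone, and Pdzrn3 among those of a cluster with 370 of its 379 nuclei in the library labelled Brca1-KO replicate 2. Hepatocyte-like Pdzrn3 was 0.987, 0.810, 0.377 and 118. Without the first of these clusters Kif5c, Thsd4, Ipcef1 and Nxn had an adjusted p of 1 by edgeR in T or NK-like nuclei.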

How the results depend on the processing

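No presentation gene was called in any class under any alternative, the smallest adjusted p being 0.117 by edgeR or DESeq2. Of 615 alternative log2 fold changes of these genes, 548 kept their direction, as did all 90 of H2-K1, and 67 reversed, for which the cause was not tested. Of 440 alternative mean levels, 14 moved by more than the SD. Same-numbered libraries deviated with correlations of -0.12 to 0.24 in 2 pairs only, too few to settle whether the numbers pair them. A replicate block gave 0 calls in monocyte or dendritic-like nuclei and moved B2m in macrophage-like nuclei to -0.022 and Nlrc5 in the sum of all nuclei to -0.013. A crossed block, added after seeing the data, gave 3 calls in the monocyte or dendritic-like class. With no filter on low counts the calls over all genes were 10 in B cell-like, 19 in T or NK-like, 37 in endothelial-like, 2 in hepatocyte-like, 70 in macrophage-like, 5 in monocyte or dendritic-like and 30 in stellate-like nuclei and 2 in the sum. DESeq2 gave 23 in hepatocyte-like nuclei, 22 in the sum and 0 in monocyte or dendritic-like nuclei, where nuclei with at least 1000 genes also gave 0. Leaving out 1 library in turn gave, in the same order, 2 to 142, 0 to 58, 0 to 395, 0 to 29, 0 to 307, 1 to 55 and 0 to 425 calls and 0 to 270 in the sum, the highest each time without replicate 1 labelled Brca1-KO. Calls in the difference from hepatocyte-like nuclei with DESeq2 were 0 in B cell-like and 1 each in T or NK-like, endothelial-like and macrophage-like nuclei. With doublets kept they were 44, 59, 5 and 18 in these classes and 0 in stellate-like nuclei. In nuclei with at least 1000 genes they were 0 in B cell-like, 3 in T or NK-like, 13 in endothelial-like, 2 in monocyte or dendritic-like and 15 in stellate-like nuclei. With no filter they were 14 in endothelial-like and 26 in stellate-like nuclei. At Leiden resolution 2 they were 2 in monocyte or dendritic-like and 20 in stellate-like nuclei, and with the 8 genes and list genes allowed in clustering 2 in the former. Without the hepatocyte-like cluster that had Gpc3 and Cyp2b9 among its leading genes, also added after seeing the data, they were 2 in T or NK-like, 3 in monocyte or dendritic-like and 0 in stellate-like nuclei. Leaving out 1 library gave 4 to 21 in B cell-like, 1 to 17 in T or NK-like, 0 to 715 in endothelial-like, 16 to 251 in macrophage-like, 0 to 9 in monocyte or dendritic-like and 10 to 95 in stellate-like nuclei. The difference for Thsd4 in T or NK-like nuclei was -3.53 with at least 1000 genes and -3.23 to 14.24 without 1 library. Reversed log2 fold changes with doublets kept were H2-D1 0.091 in B cell-like nuclei, Tap1 0.12, Tap2 0.15 and Nlrc5 0.28 in T or NK-like, Tap2 -0.28 and Psmb9 0.25 in macrophage-like and Tap2 -0.27 in stellate-like nuclei. With at least 1000 genes they were H2-D1 -0.15 and Nlrc5 0.060 in T or NK-like, H2-D1 -0.035, Tap2 -0.066 and Psmb9 0.020 in macrophage-like and B2m -0.083 and Nlrc5 -0.053 in stellate-like nuclei. With no filter they were H2-D1 -0.003195 in T or NK-like nuclei, B2m -0.007425 in macrophage-like nuclei and B2m 0.007934 in the sum. With DESeq2 they were H2-D1 0.004165 and B2m 0.008085 in hepatocyte-like nuclei and B2m 0.023 in the sum. Resolution 2 gave H2-D1 -0.005742 and B2m -0.029 in stellate-like nuclei, and allowing the genes in clustering gave B2m -0.038 in macrophage-like nuclei. Leaving out 1 library gave ranges across 0. In B cell-like nuclei they were H2-D1 -0.44 to 0.050, B2m -1.41 to 0.20 and Nlrc5 -0.25 to 0.65. For T or NK-like nuclei these were H2-D1 -0.090 to 0.12, B2m -0.31 to 0.39, Tap1 -0.62 to 0.061, Tap2 -0.72 to 0.12, Psmb9 -0.40 to 1.48 and Nlrc5 -0.16 to 0.068. In endothelial-like nuclei they were B2m -0.27 to 0.21, Psmb8 -1.25 to 0.39 and Nlrc5 -0.82 to 0.21, and in hepatocyte-like nuclei H2-D1 -0.19 to 0.13, B2m -0.19 to 0.12 and Nlrc5 -0.58 to 0.30. In macrophage-like nuclei they were H2-D1 -0.23 to 0.41, B2m -0.30 to 0.25, Tap2 -0.022 to 0.19 and Psmb9 -0.41 to 0.12, and in monocyte or dendritic-like nuclei Nlrc5 -0.13 to 0.74. In stellate-like nuclei they were H2-D1 -0.12 to 0.28, B2m -0.15 to 0.25, Tap1 -0.27 to 0.009709, Tap2 -0.012 to 0.44 and Nlrc5 -0.39 to 0.44, and in the sum B2m -0.18 to 0.12 and Nlrc5 -0.47 to 0.43. A library left alone in its group is assumed to vary like the other group. The monocyte or dendritic-like class was not run with doublets kept, having too few nuclei per library. The low UMI numbers of Psmb8 and Psmb9 limit the precision of their values.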

Other observations

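Classes with fewer than 30 nuclei in a library gave counts only, pooled over the 4 libraries, with exact Poisson 95% intervals that cover counting error only. In 70 neutrophil-like nuclei H2-K1 had 35 UMIs, a level of 213 CPM (149 to 297), B2m had 24 (146, 93.8 to 218) and Nlrc5 had 13 (79.3, 42.2 to 136). Tap1 and Tap2 had 2 UMIs each and Psmb8 and Psmb9 1 each. In 46 plasma cell-like nuclei H2-K1 had 39 UMIs, a level of 464 (330 to 635), B2m had 22 (262, 164 to 396) and Nlrc5 had 12 (143, 73.8 to 249). In the 248 nuclei of clusters that took no name H2-K1 had 221 UMIs, a level of 323 (282 to 369), and Nlrc5 had 48, a level of 70.2 (51.8 to 93.1).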
